A study of Mus musculus with 30 samples.

Results

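The collagen genes were taken as every gene whose mouse symbol has the form Col, a number, a and a number, such as Col1a1. Of 54232 gene IDs listed in each library, 44 carried such a symbol, and 36 to 40 of them passed the count filter in each cadmium comparison. By the structure of the protein they fall into 11 fibrillar, 9 FACIT, 6 basement membrane, 6 beaded filament, 4 transmembrane, 3 network and 2 multiplexin collagens, 1 anchoring fibril collagen (Col7a1) and 2 others (Col26a1 and Col28a1). The rule reads the symbol alone and the classes follow the protein.

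Collagens are secreted proteins built of chains that wind into a triple helix. Fibrillar collagens such as types I, III and V form the tension-bearing fibrils of connective tissue, and FACIT collagens (fibril-associated collagens with interrupted triple helices) such as type XIV sit on the surface of those fibrils. Type IV collagen forms the sheet of the basement membrane, and type VI forms beaded filaments around cells. The multiplexins, types XV and XVIII, link basement membranes to the tissue beneath and release the fragments restin and endostatin. In the pancreas, stellate cells and fibroblasts are the usual source of the fibrillar collagens. Islet endocrine cells make little basement membrane of their own and lie against the one laid down by the capillary endothelium.

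The 30 libraries came from pancreatic islets of wild-type male C57BL/6N mice, purified on a Biocoll gradient. Mice received vehicle or 1 mM cadmium chloride for 6 weeks (5 vehicle and 4 cadmium libraries) or 18 weeks (6 and 5 libraries), and islets already isolated were kept for 96 h in culture with vehicle or 0.5 µM cadmium chloride (5 and 5 libraries). Cadmium is a toxic metal that binds thiols and competes with zinc. The labels leave out the age of the mice, the route of dosing, the composition of the vehicle and whether animals were pooled. Nothing states that libraries of a group came from separate animals or cultures, so p-values reflect how far these libraries scatter, which may be technical scatter alone.

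Total counts ranged from 9092759 to 58366797 per library, and 3 libraries at 18 weeks (vehicle 4, vehicle 6 and cadmium 5) held the fewest, at 14751249, 9092759 and 21573301. The labelled tissue was checked with 14 markers of beta and other endocrine cells, all of which stood at 1 CPM or more in each group. CPM is the usual per-library scaling of counts to a common total, here after correction of library sizes. Markers of other pancreatic cells were also present: the 22 acinar markers summed to 27471 to 51136 CPM in the vehicle libraries at 6 weeks, 2571 to 16052 at 18 weeks and 72.5 to 130.3 in culture, where Ptf1a and Amy2a5 were listed at 0 in every vehicle library. The libraries are of whole islets, so fewer cells of a type and less RNA per cell cannot be told apart.

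Sequence upstream of the members the results turn on is shown first, because some pairs of collagen genes share a starting region. RefSeq (GRCm38.p6) gave a window from 250 bases before to 50 after the start for 35 of the 44 genes. Col4a1 and Col4a2, the main chains of basement membrane collagen, lie head to head on chromosome 8: Col4a1 at chr8:11198423-11312826 on the minus strand and Col4a2 at chr8:11312805-11449287 on the plus strand, with 22 bases in common. Their windows (Col4a1 chr8:11312777-11313076, minus strand, Col4a2 chr8:11312555-11312854, plus strand) overlap by 78 bases, chr8:11312777-11312854, printed in capitals on each strand.
Col4a1: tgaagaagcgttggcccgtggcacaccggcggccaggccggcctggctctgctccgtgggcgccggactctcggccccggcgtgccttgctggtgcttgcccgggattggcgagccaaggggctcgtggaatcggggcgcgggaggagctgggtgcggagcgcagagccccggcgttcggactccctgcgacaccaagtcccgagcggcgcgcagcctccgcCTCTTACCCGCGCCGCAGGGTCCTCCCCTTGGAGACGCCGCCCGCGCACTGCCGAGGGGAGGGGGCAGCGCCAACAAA
Col4a2: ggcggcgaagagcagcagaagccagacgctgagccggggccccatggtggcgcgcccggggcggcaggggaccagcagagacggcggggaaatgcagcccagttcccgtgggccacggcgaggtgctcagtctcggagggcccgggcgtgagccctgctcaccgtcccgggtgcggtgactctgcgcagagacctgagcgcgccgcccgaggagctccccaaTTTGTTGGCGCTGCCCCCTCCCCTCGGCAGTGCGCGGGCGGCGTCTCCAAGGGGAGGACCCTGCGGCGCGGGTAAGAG

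The windows of Col10a1, Col13a1 and Col1a2 are shown for a gene higher in culture (Col10a1), a gene lower in culture (Col13a1) and the fibrillar group (Col1a2). They lie at chr10:34389731-34390030, plus strand for Col10a1, chr10:61979059-61979358, minus strand for Col13a1 and chr6:4505368-4505667, plus strand for Col1a2. Capitals mark matches to CCAAT or TATAAA on either strand, where ATTGG and TTTATA are the letters of the other strand.
Col10a1: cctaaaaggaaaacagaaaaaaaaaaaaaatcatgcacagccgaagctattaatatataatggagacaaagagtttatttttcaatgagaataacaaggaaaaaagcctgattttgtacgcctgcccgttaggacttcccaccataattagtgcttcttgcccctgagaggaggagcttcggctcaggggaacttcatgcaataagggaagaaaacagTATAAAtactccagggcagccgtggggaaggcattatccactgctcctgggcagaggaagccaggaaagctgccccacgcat
Col13a1: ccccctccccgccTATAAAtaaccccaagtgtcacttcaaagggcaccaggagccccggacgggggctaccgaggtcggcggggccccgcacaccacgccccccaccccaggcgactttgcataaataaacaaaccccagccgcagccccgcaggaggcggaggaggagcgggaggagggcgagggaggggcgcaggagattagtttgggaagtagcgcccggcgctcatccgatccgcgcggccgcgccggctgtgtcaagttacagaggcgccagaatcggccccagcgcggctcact
Col1a2: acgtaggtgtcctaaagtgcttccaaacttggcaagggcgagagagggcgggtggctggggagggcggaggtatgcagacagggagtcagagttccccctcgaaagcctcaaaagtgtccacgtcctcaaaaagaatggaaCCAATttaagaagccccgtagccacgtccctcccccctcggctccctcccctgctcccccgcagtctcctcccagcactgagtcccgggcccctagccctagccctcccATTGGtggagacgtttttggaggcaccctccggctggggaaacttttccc

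TATAAA stood in 5 of the 35 collagen windows (14.3%), those of Col10a1, Col11a2, Col13a1, Col17a1 and Col3a1, and in 13.6% of all 32851 windows of the same length. CCAAT stood in 13 of 35 (37.1%) against 37.4% of all windows. The core of the metal response element, searched on both strands as TGCACNC or TGCGCNC, stood in 12 of 35 (34.3%) against 25.7%. Matches to different strings may share bases. A match describes these letters and shows no binding.

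Col4a1 had the highest mean level per kilobase among the collagens in each of the 3 vehicle groups. Per kilobase of exon, Col4a1 stood at 36.6 ± 3.9 CPM per kb (SD, n = 5) at 6 weeks, followed by Col4a2 at 20.97 ± 3.4, the beaded filament gene Col6a6 at 11.0 ± 1.4, Col15a1 at 7.22 ± 1.00 and Col3a1 at 6.93 ± 2.4, of which Col15a1 and Col3a1 did not differ beyond their spread. At 18 weeks the order was Col4a1 (20.1 ± 1.6 CPM per kb, n = 6), Col6a6 (11.6 ± 2.1) and Col4a2 (8.72 ± 0.70). In culture Col4a1 (24.7 ± 4.5 CPM per kb, n = 5), Col1a1 (18.0 ± 7.5) and Col3a1 (15.6 ± 5.8) overlapped in their spread, while every library stood higher for Col4a1 than any did for Col6a6 (15.0 ± 0.72). Col1a1 and Col3a1 stood next to Col4a1 in culture, where at 18 weeks they stood at 0.196 ± 0.18 and 1.58 ± 0.73 CPM per kb.

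**Figure D1:**
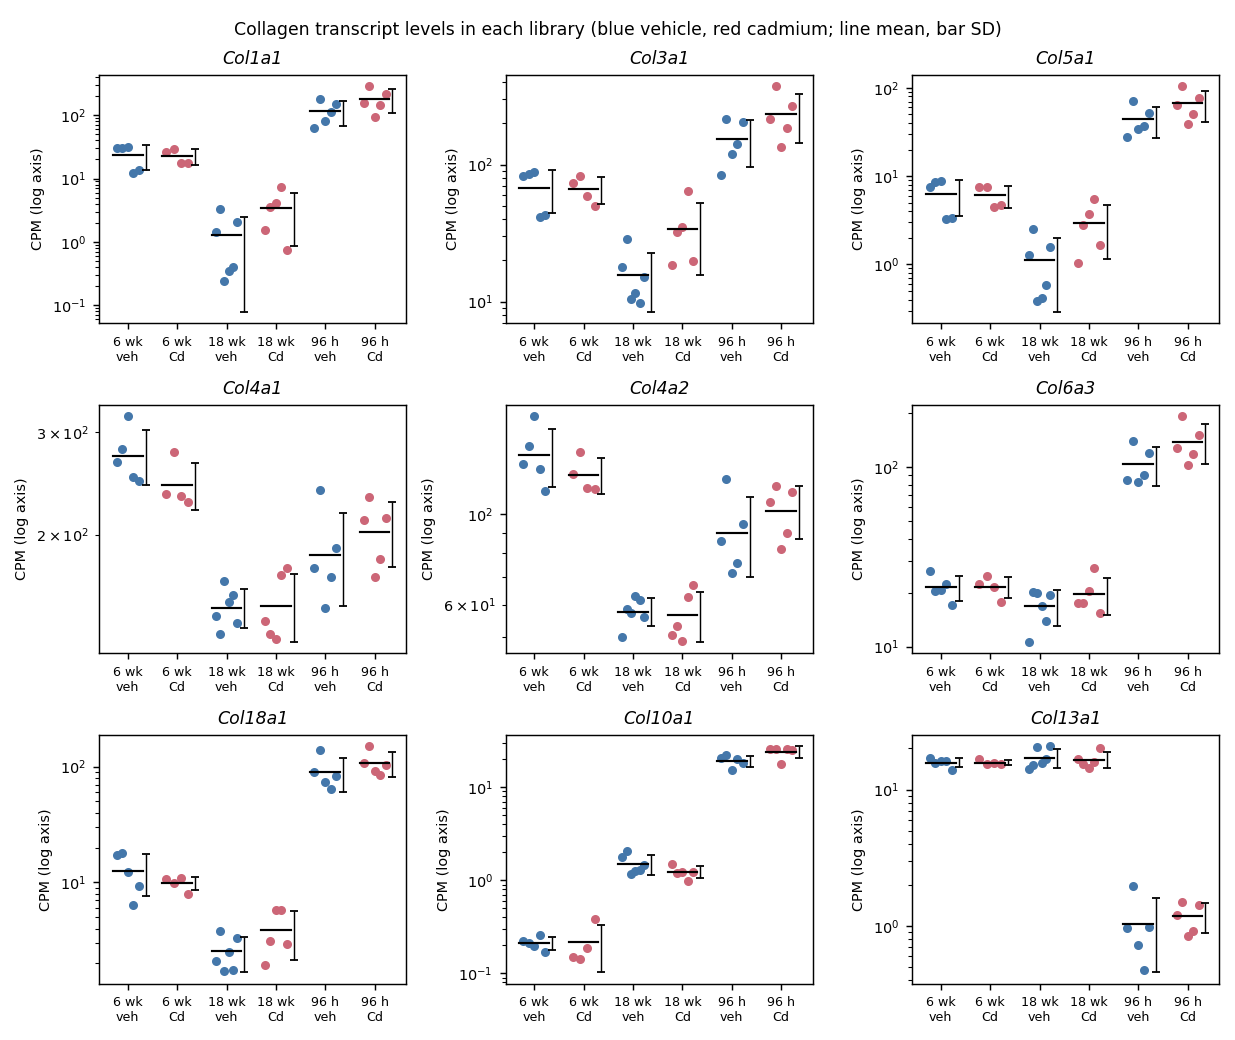
CPM of named collagen genes in each of the 30 libraries (points, log axis) for the 6 groups, with the group mean as a line and the SD as a bar. By group mean, Col1a1 and Col3a1 sit lowest in the 18-week groups and highest in culture, though single libraries overlap between these groups for Col3a1. Col4a1 stays between 132 and 319.8 CPM in all libraries.

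Vehicle islets at 18 weeks were compared with those at 6 weeks to see how the genes stood without cadmium. Most collagens were lower at 18 weeks: 27 of the 41 tested fell and 2 rose by edgeR's quasi-likelihood test at an adjusted p of 0.05. Of all 20551 genes tested, 35.9% fell and 35.9% rose. The median log2 difference of the collagens was -0.90, against 0.000274 for all genes. Of the 41, 36 reached the count filter in both groups, and 26 of these fell and 0 rose, where 42.6% of the 16056 such genes fell and 25.6% rose. Col10a1, Col17a1 and Col4a6 reached it at 1 time only, the one where they were higher, so that they had to differ to be tested. Every basement membrane gene that reached the filter at both times fell, as did 8 of 9 fibrillar and both multiplexin genes. Age, duration of the vehicle and any difference in handling between the time points cannot be told apart.

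Col1a1, the main chain of type I collagen, stood at 30.3, 30.7, 31.8, 12.1 and 13.6 CPM in vehicle libraries 1 to 5 at 6 weeks, and at 18 weeks at 0.241 (lowest), 0.899 (median) and 3.27 (highest) CPM of 6 libraries. The ranges did not overlap, and at 6 weeks libraries 1 to 3 stood above libraries 4 and 5. The log2 difference was -4.21 ± 0.51 (SE), 18.5-fold lower, with an edgeR adjusted p of 3.39e-06. Its partner chain Col1a2 fell from 38.4 ± 14 CPM (SD, n = 5) to 6.62 ± 2.6 CPM (n = 6), 5.83-fold lower (edgeR adjusted p 8.46e-07). Col3a1 (type III) was 4.43-fold lower and Col5a1 (type V, which sets fibril diameter) 5.59-fold lower, with edgeR adjusted p of 9.20e-06 and 1.36e-04.

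The basement membrane pair moved less and with little scatter. Col4a1 stood at 266, 281, 319.8, 252 and 247 CPM at 6 weeks and at 135 (lowest), 149 (median) and 167 (highest) CPM at 18 weeks. Every 6-week library lay above every 18-week library. Col4a1 was 1.87-fold lower (log2 -0.90 ± 0.08, edgeR adjusted p 9.41e-08) and Col4a2 2.47-fold lower (log2 -1.30 ± 0.10, edgeR adjusted p 2.23e-08). The multiplexin Col15a1 fell 2.98-fold, from 45.9 ± 6.3 CPM to 15.9 ± 2.1 CPM, with the smallest p of the collagens (edgeR adjusted p 1.28e-08), and Col18a1, the endostatin precursor, fell 5.24-fold.

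Among the beaded filament genes, Col6a1 fell 3.57-fold and Col6a2 5.65-fold, both of which code for chains of type VI that assemble with Col6a3. Col6a3 had a log2 difference of -0.39 ± 0.16 (edgeR adjusted p 0.0391), a call that DESeq2 and limma-voom did not give (adjusted p 0.0699 and 0.0659) and that was lost on leaving out vehicle 1, 2 or 4 at 6 weeks or vehicle 1, 4, 5 or 6 at 18 weeks, such as vehicle 1 at 6 weeks (0.106) and vehicle 5 at 18 weeks (0.117). The FACIT gene Col14a1 fell 2.97-fold (edgeR adjusted p 1.03e-04). Col6a6 and the transmembrane gene Col13a1 were not called, with log2 differences of 0.05 ± 0.13 (95% interval -0.23 to 0.32) and 0.07 ± 0.11 (-0.16 to 0.30).

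Col10a1 and Col17a1 were the 2 called higher, and both passed the filter through the 18-week libraries alone, so only their levels are given. Col10a1, the hypertrophic cartilage network collagen, stood at 0.224, 0.211, 0.197, 0.258 and 0.171 CPM at 6 weeks, where it rested on 8 to 12 counts, and at 1.18 (lowest), 1.37 (median) and 2.08 (highest) CPM at 18 weeks. Col17a1, a transmembrane collagen of hemidesmosomes, went from 0.0680 ± 0.047 CPM to 0.378 ± 0.11 CPM, both near the detection limit.

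Markers of most cell types followed were lower in the same libraries, those of the collagen-making cells among them. The 21 stellate and fibroblast markers, none of them a collagen, summed to 309 to 495 CPM at 6 weeks and 203 to 274 CPM at 18 weeks, and 18 of the 20 tested fell. Endothelial markers summed to 819.7 to 1035 and 560.3 to 695 CPM, with 13 of 17 falling, and acinar markers fell for 22 of 22. Sums of endocrine, macrophage, ductal, Schwann and mesothelial markers were lower as well. The endocrine means were 273655 and 174976 CPM and the macrophage means 711 and 244 CPM. Adipocyte markers differed little, at 9.29 and 8.69 CPM. The part of any of these markers in the collagen differences was not tested.

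Cultured vehicle islets were set against both groups of vehicle islets from mice dosed in vivo in a fit of the 3 vehicle groups. The 2 comparisons share the culture libraries, so their values are given side by side and not as 2 observations. Against 6 weeks, 19 of 41 collagens rose and 13 fell, where 25.9% of all 20735 genes rose and 28% fell, and against 18 weeks 27 rose and 8 fell, where 31.3% rose and 36% fell. The median log2 difference was 0.50 (all genes -0.00696) against 6 weeks and 1.04 (all genes -0.0497) against 18 weeks. Among the 34 that reached the filter in both groups compared, 18 rose and 10 fell against 6 weeks (26.3% and 31.5% of such genes), and 26 rose and 4 fell against 18 weeks (37.2% and 28.5%). Culture, isolation day, sequencing depth (24267100 to 26501641 counts) and the age of the mice cannot be told apart.

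Col10a1 had the largest difference from 6 weeks, where it lay under the filter. The 5 vehicle culture libraries held 20.7, 22.02, 15.2, 19.9 and 18.3 CPM, which rested on at least 441 counts each. Every culture library lay above every library from mice dosed in vivo. Against 6 weeks the gene reached the filter through the culture libraries alone, so only levels are given. The 6-week vehicle libraries held 0.171 to 0.258 CPM. Both groups reached the filter against 18 weeks, where the gene was 12.5-fold higher in culture (log2 3.64 ± 0.15, edgeR adjusted p 3.13e-13). One exon of Col10a1 overlaps Nt5dc1 on the opposite strand by 18 bases, and no source gives the strand setting of the counting. Nt5dc1 itself stood at 14.3, 17.5 and 15.7 CPM in the vehicle groups at 6 weeks, at 18 weeks and in culture.

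Fibrillar genes rose in culture, with 7 of 9 called higher against each fresh group. Col1a1 stood at 62.4, 183, 82.4, 112 and 152 CPM in vehicle culture libraries 1 to 5, 5.004-fold above 6 weeks and 89.0-fold above 18 weeks (edgeR adjusted p 5.75e-05 and 1.39e-09). Library 1 was the lowest and library 2 the highest, and none overlapped the fresh vehicle libraries. Col5a2, which pairs with Col5a1 in type V, was 11.4-fold and 30.3-fold higher, and Col5a1 7.03-fold and 37.5-fold. Col3a1 rose less, 2.26-fold and 9.76-fold, and Col1a2 3.16-fold and 17.9-fold. Col27a1, a fibrillar chain of cartilage, was 1.90-fold and 1.48-fold lower, and Col11a2 was lower against 6 weeks (log2 -0.43 ± 0.13).

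Genes of other classes rose as well. Col18a1 went from 12.7 ± 5.0 CPM at 6 weeks and 2.54 ± 0.86 CPM at 18 weeks to 89.7 ± 29 CPM in culture, 7.11-fold and 36.7-fold higher. Its relative Col15a1 differed from 6 weeks by a log2 value of -0.13 ± 0.14, which was not called (edgeR adjusted p 0.477), and was 2.66-fold above 18 weeks. Col6a3 rose 4.88-fold and 6.28-fold, Col6a1 2.15-fold and 7.49-fold, and Col6a2 1.88-fold and 10.3-fold. Higher in both as well were Col28a1, Col12a1 and the fibrillar gene Col5a3. Their log2 differences against 6 weeks were 1.72 ± 0.19, 1.91 ± 0.23 and 2.14 ± 0.23. Col14a1 was 4.05-fold above 18 weeks. Against 6 weeks its log2 difference of 0.50 ± 0.26 was not called (edgeR adjusted p 0.114). It was called without vehicle library 2 at 18 weeks (edgeR adjusted p 0.0496) and with a block for the replicate number (0.0203).

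Within type IV the chains went different ways. Col4a1 stood at 176, 238, 149.6, 169 and 189.5 CPM in vehicle culture, 1.47-fold below 6 weeks and 1.24-fold above 18 weeks (edgeR adjusted p 1.23e-04 and 0.00875), and Col4a2 was 1.54-fold lower and 1.57-fold higher. Library 2 was the highest for both. The head-to-head pair Col4a3 and Col4a4, whose starts lie 71 bases apart on chromosome 1, was lower against both fresh groups. Col4a3 stood at 3.95, 4.12, 4.41, 4.30 and 4.72 CPM at 6 weeks and 0.395, 0.599, 0.517, 0.845 and 0.561 CPM in culture, 7.31-fold lower (edgeR adjusted p 1.26e-11), and Col4a4 was 3.60-fold lower (edgeR adjusted p 1.01e-06).

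Col13a1, a transmembrane collagen found at sites of cell adhesion, fell against both fresh groups. It stood at 17.0, 15.7, 16.3, 16.1 and 13.8 CPM at 6 weeks, at 14.0 (lowest), 16.3 (median) and 20.8 (highest) CPM at 18 weeks and at 0.970, 1.97, 0.723, 0.478 and 0.982 CPM in vehicle culture. No culture library came near a fresh one. The gene was 15.2-fold below 6 weeks and 16.4-fold below 18 weeks (edgeR adjusted p 1.30e-11 and 1.20e-11). Col6a5, Col19a1, Col17a1 and Col23a1 were called lower in culture in at least 1 of the comparisons but lay under the filter there, so only their levels are given. Col6a5 stood at 3.06 ± 2.2 CPM at 6 weeks, 0.522 ± 0.46 CPM at 18 weeks and 0.113 ± 0.066 CPM in culture. The other three had means of 0.0680 to 0.511 CPM at 6 weeks, 0.378 to 0.625 CPM at 18 weeks and 0.0214 to 0.200 CPM in culture, where Col17a1 had 0 counts in 3 of 5 vehicle libraries.

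Sums of some cell type markers differed between vehicle culture and 6 weeks, and others were alike. Endothelial markers summed to 65.9 to 117 CPM, against 819.7 to 1035 at 6 weeks, and all 17 fell. Stellate and fibroblast markers summed to 405 to 658 CPM, against 309 to 495 at 6 weeks and 203 to 274 at 18 weeks. Macrophage means were 711, 244 and 483 CPM at 6 weeks, at 18 weeks and in culture. In the same order, ductal means were 433, 286 and 426 CPM and Schwann means 163, 99.6 and 160 CPM. The part of any of these lists in the collagen values was not tested.

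**Figure D2:**
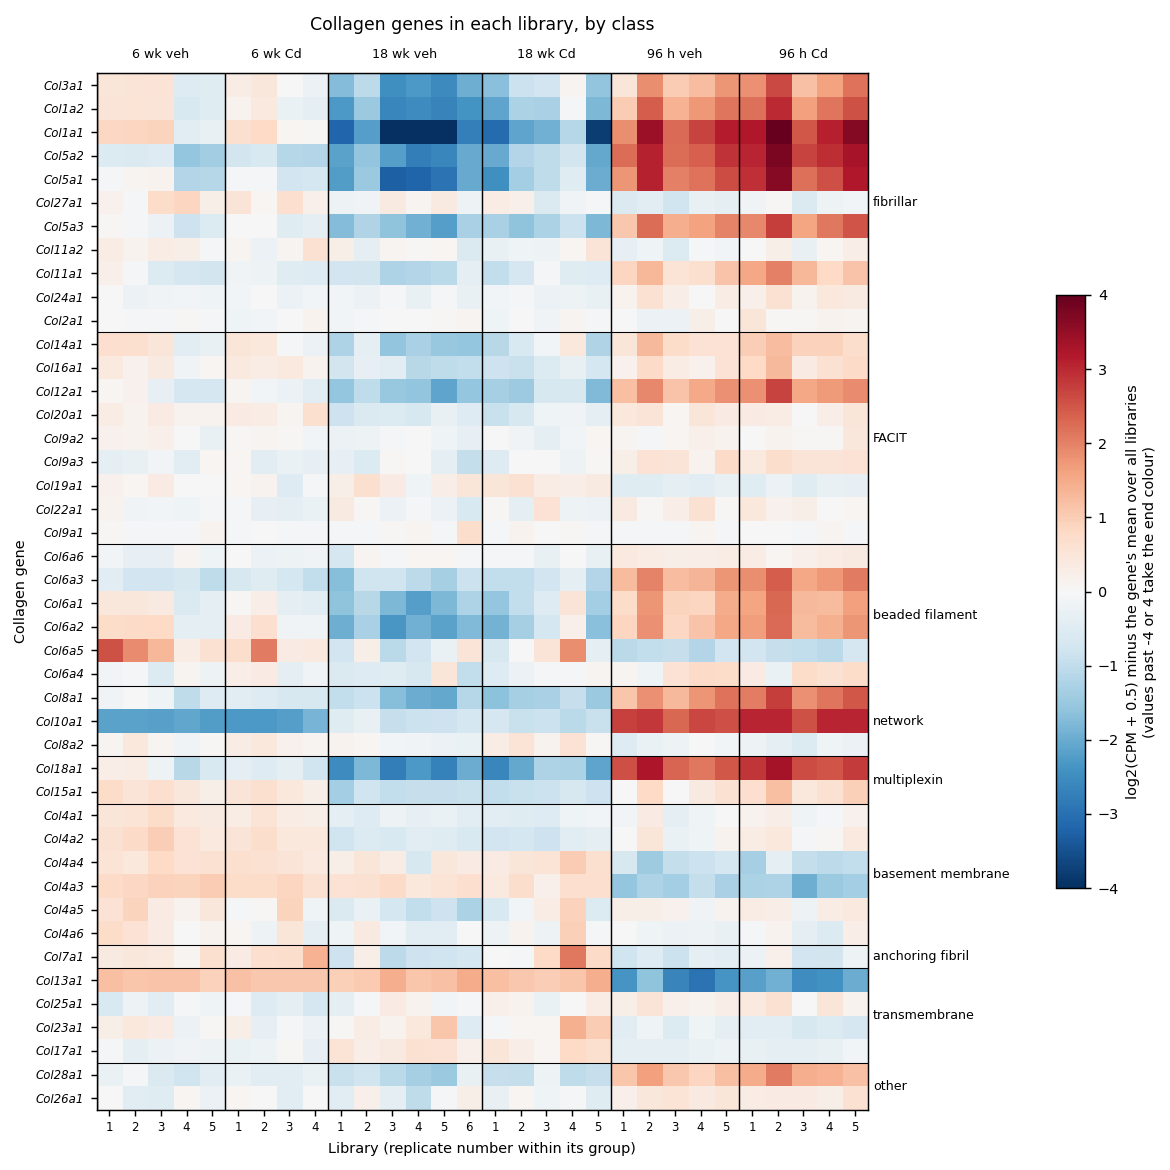
Level of each of the 44 collagen genes in the 30 libraries, shown as log2(CPM + 0.5) relative to that gene's mean over all libraries, with genes ordered by class and libraries by group. The culture libraries stand above the others for most fibrillar genes and below them for Col13a1 and Col4a3. For Col4a4 they stand mostly below, with cadmium culture library 2 (1.76 CPM) above vehicle library 4 at 18 weeks (1.40 CPM). Values past -4 or 4 take the end colour.

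After 6 weeks of cadmium no collagen was called. Of 39 genes tested, 0 were called by edgeR, as for all 18080 genes tested (0%). DESeq2 also called 0 collagens and 0.0554% of genes, and limma-voom 0 of either. At an unadjusted p under 0.05 there was 1 collagen, Col7a1, and there were 923 genes in all. The median log2 difference was -0.06 (all genes -0.00187), with 11 genes above 0 and 28 below. Among the 35 that reached the filter in both groups it was -0.049 (-0.0023 for all such genes). No collagen had groups that did not overlap, where 0.935% of genes did with cadmium higher and 0.608% with cadmium lower.

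Col1a1 stood at 26.4, 29.4, 17.7 and 17.4 CPM in the 4 cadmium libraries, all within the vehicle range of 12.1 to 31.8. Its log2 difference was -0.07 ± 0.30 (95% interval -0.74 to 0.60), and those of Col1a2, Col3a1 and Col5a1 were -0.18 ± 0.27, -0.04 ± 0.25 and -0.06 ± 0.32. The signs for Col1a1, Col3a1 and Col5a1 turned without vehicle library 1, 2 or 3, which were the high ones, and without cadmium library 3 or 4, with ranges over the left-out libraries of -0.23 to 0.061, -0.18 to 0.068 and -0.22 to 0.090. For Col14a1 (-0.11 ± 0.26) the sign turned without vehicle 1 or cadmium 4 (range -0.25 to 0.0089), and for Col6a3 (0.01 ± 0.12) without vehicle 2, 3 or 5 or cadmium 1 or 2 (-0.065 to 0.090). Stellate and fibroblast markers split the vehicle libraries in the same way, with sums of 492, 495, 434, 317 and 309 CPM in vehicle and 393, 413, 338 and 312 CPM in cadmium libraries.

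Col4a1 stood at 235, 277, 233 and 228 CPM with cadmium, a log2 difference of -0.17 ± 0.08 (95% interval -0.35 to 0.01, edgeR adjusted p 0.919). Col4a2, Col15a1 and Col18a1 had log2 differences of -0.16 ± 0.11, -0.09 ± 0.10 and -0.36 ± 0.26, and Col6a1 and Col6a2 of -0.24 ± 0.24 and -0.21 ± 0.30. All 6 basement membrane genes had a negative value, though Col4a6 reached the filter through the vehicle libraries alone. Col7a1, which anchors epithelial basement membranes to the stroma, stood at 5.54, 5.98, 5.73, 4.68 and 6.88 CPM with vehicle and 5.44, 7.07, 7.23 and 12.0 CPM with cadmium, with cadmium libraries 2, 3 and 4 above every vehicle library and library 1 among them (log2 0.46 ± 0.20, edgeR adjusted p 0.919). Without cadmium library 4 its log2 difference was 0.19. In the same comparison the acinar markers had positive values for 22 of 22 genes (sums 27471 to 51136 and 37257 to 84932 CPM) and the macrophage markers negative values for 16 of 16, none of them called.

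Cadmium for 18 weeks came with higher mean levels of most collagens, but none was called. Of 40 genes tested, 34 lay above 0 and 6 below, with a median log2 difference of 0.32 (all genes 0.000291, with 10465 of 20911 above 0). Among the 36 that reached the filter in both groups the median was 0.28 (0.0075 for all such genes). Without cadmium library 4, which stood apart as described below, 29 of 41 lay above 0 and the median was 0.23. edgeR called 0 of them, where it called 0.359% of all 20911 genes, and 12 collagens and 3804 genes had an unadjusted p under 0.05. DESeq2 called 2 collagens and 3.89% of all genes, and limma-voom called none of either. With all 6 groups in the edgeR fit, 8 collagens, all higher, and 11% of all genes were called. The 75 genes that edgeR called in all became 2 without cadmium library 4, and 0 to 318 over the 11 libraries left out in turn. The groups overlapped for all 40 collagens, where 0.937% of genes had every cadmium library higher and 0.588% every one lower. By class the median was 0.94 over 9 fibrillar, 0.70 over 6 beaded filament, 0.22 over 6 basement membrane and 0.17 over 7 FACIT genes. These medians take in Col6a5 and Col4a6, which reached the filter through the cadmium libraries alone, and Col6a4, which reached it in neither group alone.

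Col7a1 had the smallest p. It stood at 1.78 (lowest), 2.20 (median) and 5.15 (highest) CPM in the 6 vehicle libraries and at 4.27, 4.02, 7.78, 20.04 and 7.61 CPM in cadmium libraries 1 to 5. Cadmium library 4 was far above the rest, vehicle library 2 lay above cadmium libraries 1 and 2, and the groups overlapped. The mean was 3.23-fold higher (log2 1.69 ± 0.41, edgeR adjusted p 0.0909). The adjusted p passed the threshold without vehicle library 2 (0.0389), cadmium library 1 (0.0494) or cadmium library 2 (0.0394), in DESeq2 (0.0174) and with all 6 groups in the fit (0.00181). Without cadmium library 4 the log2 difference was 1.125 (edgeR adjusted p 0.260), and over all alternatives the adjusted p ran from 0.00181 to 0.260.

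The chains of types I, III and V had larger log2 differences than type IV. Col1a1 stood at 0.241 (lowest), 0.899 (median) and 3.27 (highest) CPM with vehicle and 1.52, 3.53, 4.05, 7.31 and 0.751 CPM with cadmium, and Col3a1 at 9.72 (lowest), 13.3 (median) and 28.7 (highest) and 18.5, 32.3, 34.9, 64.2 and 19.9. Cadmium library 4 was the highest for both, cadmium libraries 1 and 5 lay inside the vehicle range for both, and the groups overlapped. The log2 differences were 1.43 ± 0.64 for Col1a1 (edgeR adjusted p 0.262), 1.18 ± 0.34 for Col1a2 (0.133), 1.12 ± 0.33 for Col3a1 (0.143) and 1.38 ± 0.50 for Col5a1 (0.192). Without cadmium library 4 they were 0.97, 0.72, 0.76 and 1.02. Of these chains, the edgeR fit of all 6 groups called Col1a2 and Col3a1 (adjusted p 0.0282 and 0.0290), beside 11% of all genes.

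Of type VI, Col6a1 and Col6a2 had log2 differences of 1.09 ± 0.35 and 1.14 ± 0.37 (edgeR adjusted p 0.159 and 0.159), and Col6a3 of 0.23 ± 0.18. Col6a1 stood at 3.01 (lowest), 4.497 (median) and 6.996 (highest) CPM with vehicle and 5.02, 7.58, 10.7, 22.8 and 5.73 CPM with cadmium. Libraries 2, 3 and 4 with cadmium lay above all vehicle libraries, and libraries 1 and 5 did not. Col14a1 and Col18a1 had log2 differences of 0.83 ± 0.32 and 0.65 ± 0.30, and Col15a1 of 0.15 ± 0.11. Without cadmium library 4 the values were 0.58 for Col6a1, 0.64 for Col6a2, 0.089 for Col6a3, 0.52 for Col14a1, 0.48 for Col18a1 and 0.093 for Col15a1. The edgeR fit of all 6 groups called Col6a1 and Col6a2 (adjusted p 0.0302 and 0.0383).

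For the basement membrane pair the log2 differences lay near 0. Col4a1 stood at 142, 135, 132, 171 and 175 CPM with cadmium, with a log2 difference of 0.02 ± 0.09 (95% interval -0.18 to 0.21), and Col4a2 had -0.03 ± 0.09 (-0.23 to 0.17). Leaving out 1 library gave -0.045 to 0.062 for Col4a1, below 0 without vehicle 2, cadmium 4 or cadmium 5, and -0.098 to 0.020 for Col4a2, above 0 without vehicle 4, cadmium 1 or cadmium 3. The less abundant Col4a5 had 1.05 ± 0.33 (edgeR adjusted p 0.157). Col10a1 had the smallest p among the genes below 0, at -0.30 ± 0.20 (0.427).

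The same cadmium libraries held more transcripts of other pancreatic cells. Acinar markers summed to 2571 to 16052 CPM with vehicle and to 36409.5, 14809.5, 101072, 245283 and 62073 CPM in cadmium libraries 1 to 5, and 18 of 22 were called higher by edgeR. Ductal markers summed to 271 to 315 and to 343, 396, 457, 506 and 310.0 CPM. Stellate and fibroblast markers summed to 203 to 274 and to 275, 269.8, 351, 335 and 245 CPM, with 17 of 19 genes above 0 and a median log2 difference of 0.98. Macrophage markers lay above 0 for 15 of 16 genes. Cadmium library 4 was the highest for acinar and ductal markers as for Col1a1, Col3a1 and Col7a1, and the part of these markers in the collagen values was not tested.

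**Figure D3:**
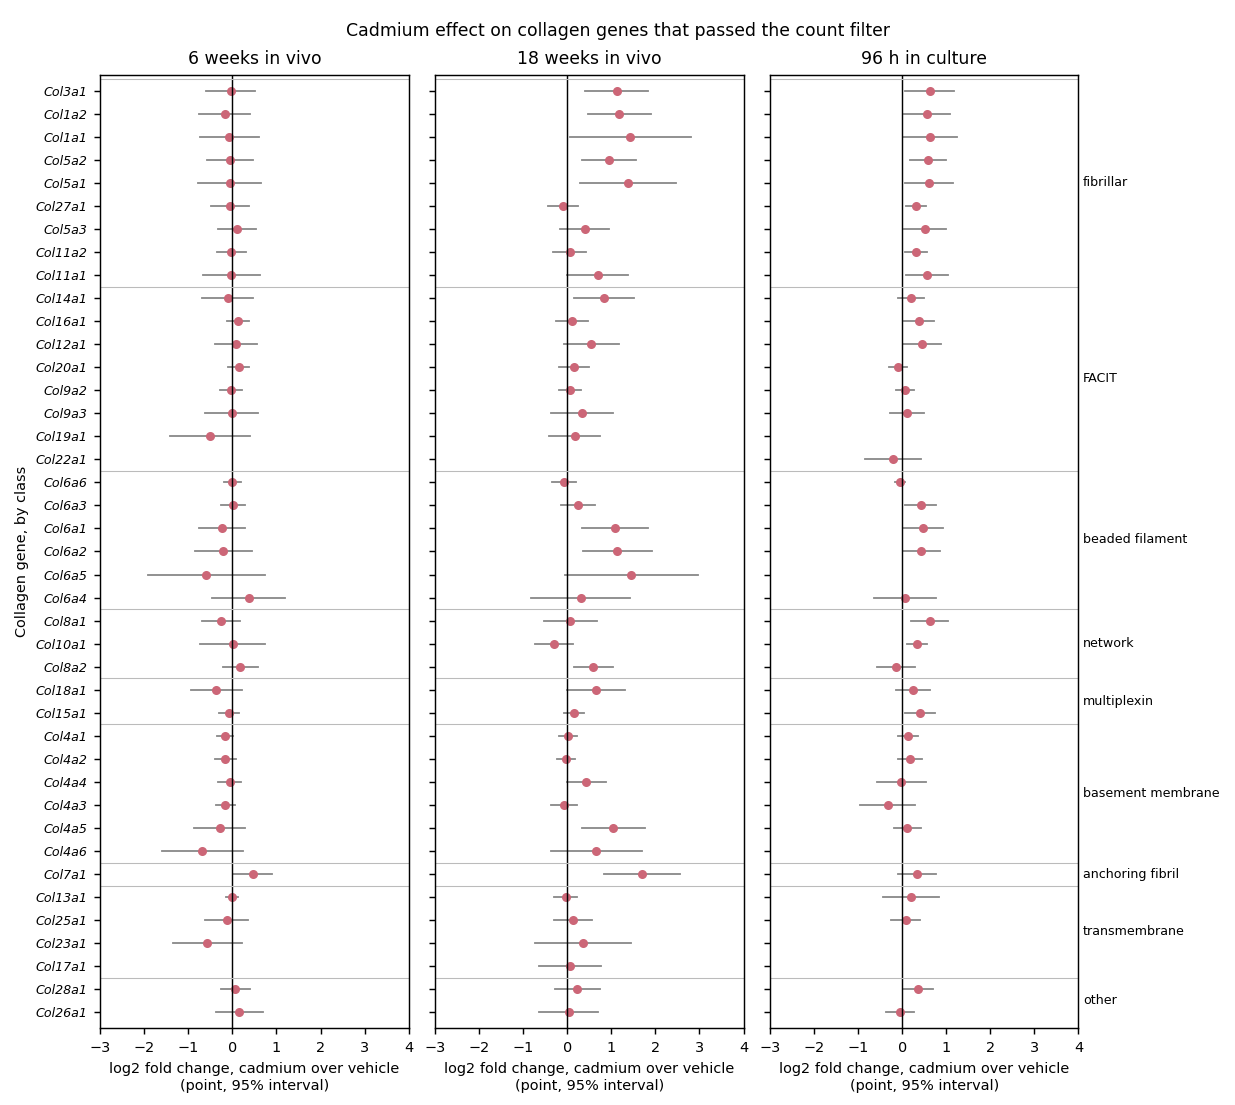
Log2 difference, cadmium over vehicle, of each tested collagen gene (points) with its 95% interval at 6 weeks, at 18 weeks and in culture, ordered by class. The fibrillar genes cluster near 0 at 6 weeks and mostly above 0 at 18 weeks and in culture. No gene reached an edgeR adjusted p under 0.05 in these fits, which took the libraries as unpaired.

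Cadmium in culture came with higher mean levels of every tested fibrillar collagen, without a call when the libraries were taken as unpaired. Of 36 genes tested, 29 lay above 0 and 7 below, with a median log2 difference of 0.31 (all genes -0.00215). Among the 33 that reached the filter in both groups it was 0.33 (-0.0039 for all such genes). edgeR, DESeq2 and limma-voom each called 0 of the 36 and 0.00597% of all 16743 genes. At an unadjusted p under 0.05 there were 18 collagens, among them all 9 fibrillar genes, against 920 genes in all. The lowest edgeR adjusted p of a collagen was 0.888, and the groups overlapped for all 36, where 0.334% of genes had every cadmium library higher and 0.496% every one lower. With a block for the replicate number, edgeR called 19 of the 36, all higher, beside 1.33% of all genes. Whether the numbers pair the libraries is not known.

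Col1a1 stood at 158, 292, 95.2, 147 and 219 CPM in cadmium libraries 1 to 5, and vehicle libraries 1 to 5 held 62.4, 183, 82.4, 112 and 152 CPM. Library 2 was the highest of its group in both, and cadmium library 3 lay below 3 of the vehicle libraries. The log2 difference was 0.63 ± 0.29 for Col1a1, 0.55 ± 0.24 for Col1a2, 0.62 ± 0.26 for Col3a1 and 0.60 ± 0.25 for Col5a1. Col8a1, a short-chain network collagen of vessel walls, had the smallest p among the genes above 0. It stood at 13.9, 23.5, 16.2, 22.4 and 29.9 CPM with vehicle and 27.5, 45.7, 23.6, 28.9 and 36.9 CPM with cadmium, overlapping ranges that gave a log2 difference of 0.62 ± 0.19 (edgeR adjusted p 0.888).

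Of type VI, Col6a1, Col6a2 and Col6a3 had log2 differences of 0.48 ± 0.21, 0.44 ± 0.20 and 0.42 ± 0.16, and the multiplexins Col15a1 and Col18a1 of 0.41 ± 0.16 and 0.25 ± 0.18. Col14a1 had 0.20 ± 0.14. The basement membrane pair had 0.13 ± 0.11 for Col4a1 (95% interval -0.09 to 0.36) and 0.18 ± 0.13 for Col4a2 (-0.09 to 0.45). Col4a3, the gene of smallest p below 0, had -0.33 ± 0.29 and reached the filter through the vehicle libraries alone. Stellate and fibroblast markers summed to 434, 658, 405, 434 and 542 CPM in vehicle and 632, 857, 495, 553 and 647 CPM in cadmium libraries, with 17 of 18 above 0 and a median log2 difference of 0.44, whose part in the collagen values was not tested.

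Culture libraries of the 2 groups carry the numbers 1 to 5, and the labels do not say what a shared number marks. Set side by side by number, as differences of log2(CPM + 0.5), 17 of 36 collagens were higher in the cadmium library of all 5 numbers and 0 were lower in all 5, where 5.73% of 16743 genes were higher and 5.78% lower in all 5. The 17 were 8 of 9 fibrillar genes, all but Col11a1, both multiplexins, Col6a1, Col6a2, Col6a3, Col8a1, Col10a1, Col12a1 and Col16a1. None of the 5 basement membrane genes tested was among them.

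For numbers 1 to 5 the Col1a1 differences were 1.34, 0.67, 0.21, 0.39 and 0.53, and those of Col3a1 1.35, 0.79, 0.17, 0.38 and 0.39. Number 1 gave the largest difference for both and number 3 the smallest. Col6a3 differed by 0.59, 0.46, 0.31, 0.39 and 0.33, Col15a1 by 0.67, 0.38, 0.39, 0.26 and 0.35 and Col18a1 by 0.26, 0.11, 0.30, 0.40 and 0.29. Each was above 0 at every number, and Col18a1 was smallest at number 2. Col4a1 differed by 0.27, -0.04, 0.18, 0.10 and 0.17, below 0 at number 2 and small elsewhere.

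**Figure D4:**
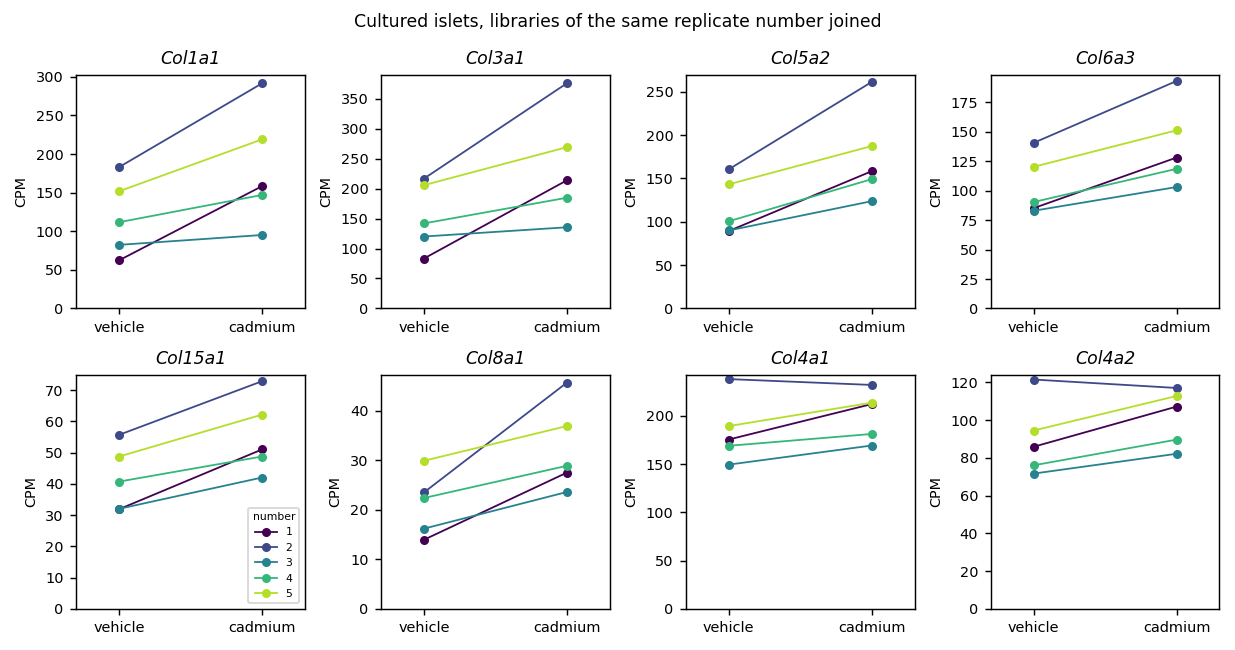
CPM of 8 collagen genes in culture (axes from 0), with the vehicle and cadmium library of each shared number 1 to 5 joined by a line. Lines for Col1a1, Col3a1, Col6a3 and Col15a1 go up at every number, while those for Col4a1 and Col4a2 go down at number 2.

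Differences between the cadmium effects of the settings were tested in a fit of all 6 groups. For 18 weeks minus 6 weeks, 0 of 42 collagens were called by edgeR, where 1.68% of 22721 genes were, and DESeq2 called 1 with 7.85% of genes. By edgeR, 13 had an unadjusted p under 0.05. Col4a5 came closest at a log2 difference of effects of 1.31 ± 0.40 (edgeR adjusted p 0.0700), which passed in DESeq2 (0.0283), without the 3 shallowest libraries at 18 weeks (0.0358, where 11.3% of all genes were called), and without vehicle library 4 at 6 weeks (0.0484), cadmium library 1 at 18 weeks (0.0326) or cadmium library 5 at 18 weeks (0.0263). Without cadmium library 4 at 18 weeks it was 0.95 (edgeR adjusted p 0.190). Col1a1, Col1a2, Col3a1 and Col5a1 had differences of 1.47 ± 0.69, 1.33 ± 0.48, 1.15 ± 0.48 and 1.39 ± 0.62, and Col6a1, Col6a2 and Col7a1 of 1.31 ± 0.46, 1.33 ± 0.49 and 1.22 ± 0.47, with edgeR adjusted p from 0.104 to 0.219. Over the 30 libraries left out in turn, the number of all genes called in this test ran from 0 to 1694.

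For culture minus 6 weeks, edgeR called 0 of 42 collagens and 0% of all genes, and 2 collagens had an unadjusted p under 0.05: Col8a1 at 0.87 ± 0.34 and Col15a1 at 0.48 ± 0.21. For culture minus 18 weeks it called 0 of 42 and 0.0176% of all genes, and 4 had an unadjusted p under 0.05, led by Col10a1 at 0.65 ± 0.22 (edgeR adjusted p 0.223) and Col7a1 at -1.35 ± 0.48 (0.233). Col1a1 differed between the effects by 0.69 ± 0.57 and -0.79 ± 0.67, and Col4a1 by 0.30 ± 0.15 and 0.12 ± 0.15. DESeq2 called 0 collagens in both, with 0.00881% and 0.991% of all genes.

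Collagen is made with many partners, and 94 genes of folding, secretion, propeptide cleavage, cross-linking, fibril and basement membrane assembly, receptors and breakdown were followed with it. With cadmium, edgeR called 0 of 87 tested at 6 weeks, 1 of 82 at 18 weeks and 0 of 86 in culture, beside 0%, 0.359% and 0.00597% of all genes. The 1 was Lamb3, a chain of laminin-332, which rose from 0.512 ± 0.38 CPM to 3.77 ± 2.7 CPM (log2 2.76 ± 0.48, edgeR adjusted p 0.0376). At 18 weeks edgeR called 75 genes in all and 2 without cadmium library 4, and whether Lamb3 is among the 2 is not given here. In the test of 18 weeks minus 6 weeks, 3 of 92 were called, beside 1.68% of all genes, all with the larger value at 18 weeks: Lamb3, the lysosomal protease gene Ctsb and the transglutaminase gene Tgm2, with log2 differences of effects of 2.29 ± 0.55, 0.35 ± 0.09 and 1.83 ± 0.48. In culture 73 of 86 lay above 0, beside 8165 of 16743 genes in all.

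Serpinh1, which codes for the collagen chaperone HSP47, had log2 differences with cadmium of -0.14 ± 0.15, 0.47 ± 0.16 and 0.45 ± 0.17 in the settings in this order (6 weeks, 18 weeks, culture). Lox, the cross-linking oxidase, had -0.46 ± 0.41, 1.18 ± 0.84 and 0.97 ± 0.37, and Sparc, a matrix protein that binds collagen, -0.22 ± 0.13, 0.37 ± 0.10 and 0.43 ± 0.19. None of these was called. P4hb, a subunit of prolyl hydroxylase that also serves as a general folding enzyme, lay near 0 throughout, at -0.02 ± 0.05, 0.07 ± 0.09 and -0.04 ± 0.05.

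Between the vehicle groups many of the partners were called. At 18 weeks against 6 weeks 60 of 86 fell and 6 rose, beside 35.9% and 35.9% of all genes. In culture against 6 weeks 29 rose and 32 fell (25.9% and 28% of all genes), and against 18 weeks 49 rose and 17 fell (31.3% and 36%). Serpinh1 fell at 18 weeks (log2 -0.56 ± 0.13, edgeR adjusted p 0.00113) and was higher in culture than at 6 weeks (0.57 ± 0.16, 0.00564). Lox went the same way (-2.60 ± 0.68 and 1.90 ± 0.52), as did Sparc (-1.60 ± 0.10 and 0.49 ± 0.16), while P4hb was not called at 18 weeks (-0.07 ± 0.07) and fell in culture against 6 weeks (-0.51 ± 0.06).

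By smallest p, the partners called higher at 18 weeks than at 6 weeks were led by Timp4 (an inhibitor of matrix proteases), Loxl4 and Ppib, with log2 differences of 2.51 ± 0.16, 2.23 ± 0.24 and 0.45 ± 0.06, and those called lower by Creb3l2, Creb3l1 and Adgrg1, at -1.81 ± 0.08, -2.95 ± 0.14 and -1.64 ± 0.08. In culture against 6 weeks, Postn, a matrix protein of fibroblasts, rose from 9.05 ± 1.9 CPM to 141 ± 38 CPM, and the collagenase genes Mmp14 and Mmp13 rose by 2.82 ± 0.17 and 3.59 ± 0.24 on the log2 scale. Lama3, another laminin-332 chain, went from 23.4 ± 1.5 CPM to 0.835 ± 0.16 CPM, and Nid2 and Timp3 had log2 differences of -2.61 ± 0.19 and -2.21 ± 0.19. Against 18 weeks, Ctsb, Mmp14 and Postn led upward, at 2.01 ± 0.06, 4.46 ± 0.18 and 5.17 ± 0.26, and Lama3, Timp4 and Sec23a downward, at -4.72 ± 0.13, -1.84 ± 0.15 and -0.70 ± 0.06.

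Summed over the 44 genes, collagens held 0.0860% ± 0.012 (SD, n = 5) of counts with vehicle and 0.0785% ± 0.0072 (n = 4) with cadmium at 6 weeks, 0.0482% ± 0.0054 (n = 6) and 0.0492% ± 0.0043 (n = 5) at 18 weeks, and 0.162% ± 0.041 (n = 5) and 0.217% ± 0.059 (n = 5) in culture. In these shares of raw counts the difference between cadmium and vehicle was within the SD of the vehicle group at 6 and 18 weeks, and in culture it was larger than the vehicle SD but smaller than that of the cadmium group. On the scale of TMM-corrected CPM the sum at 18 weeks was 483 ± 35 CPM with vehicle and 542 ± 88 CPM with cadmium, a difference above the vehicle SD and below the cadmium SD, and 504 ± 21 CPM (n = 4) without cadmium library 4. Within the collagens, basement membrane genes made up 46.5% of the counts in vehicle islets at 6 weeks, 44.7% at 18 weeks and 19.4% in culture. Fibrillar genes made up 20.5%, 12.6% and 40.5%, and with cadmium 21.3%, 17.1% and 46.4%. A library's longest and most expressed genes weigh most in these sums.

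**Figure D5:**
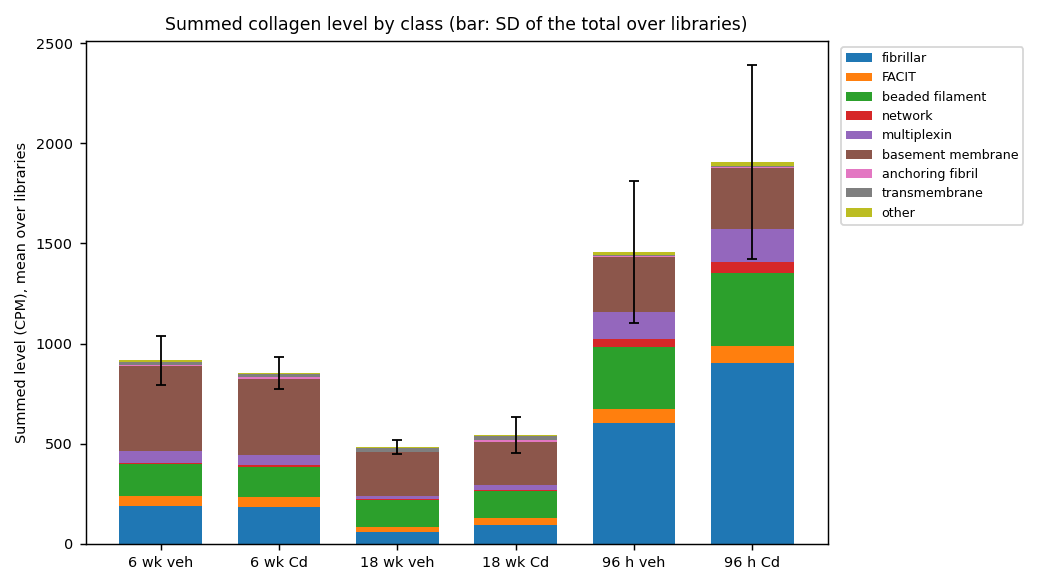
Summed CPM of each collagen class as group means, stacked for the 6 groups, with the SD of the total over libraries as a bar. Basement membrane genes hold the largest part in the 4 groups from mice dosed in vivo and fibrillar genes in the 2 culture groups.

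Several members were at or near the detection limit. Col9a1 had 0 counts in 15 of the 30 libraries and at most 5 in any, 31 in all, and a count of 0 allowed up to 0.0514 to 0.139 CPM depending on depth. Col2a1, the main cartilage collagen, had 92 counts in all and Col24a1 123. Col9a1 and Col2a1 passed the count filter in no comparison, and Col24a1 only in the fit of all 6 groups. Col17a1, Col22a1, Col19a1, Col23a1, Col4a6 and Col6a5 were under the filter in some comparisons, Col17a1 with 0 counts in 6 libraries. For these genes a difference was not detectable at this depth where none was tested, and limits of this kind cover counting error only.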

How the data were processed

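The members and gene lists were chosen with earlier results of these data known. The authors deposited raw read counts per Ensembl gene for each of the 30 libraries, with no normalization. Per the submitters' processing notes, cutadapt 1.13, STAR, HTSeq 0.6.1p1, DESeq2 and build mm10 were used upstream. The sources used here give no annotation release, strand setting or rule for multi-mapping reads. Symbols matched 54079 of 54232 IDs (99.72%), leaving 153 that took up to 0.0172% of counts in a library. Coordinates and exon lengths are those of GENCODE M21 (GRCm38).

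Each cadmium comparison and the comparison of the 2 fresh vehicle groups was fitted on its own 2 groups, culture vehicle in a fit of the 3 vehicle groups, and differences of cadmium effects in a fit of all 30 libraries. Tests used edgeR (version 4.0.16, R 4.3.3) by quasi-likelihood on TMM-scaled counts of genes that passed filterByExpr at a minimum count of 10 and a total of 15. P-values were Benjamini-Hochberg adjusted over all genes tested, with calls under 0.05. Values are log2 differences ± SE and CPM ± SD, on TMM-scaled library sizes. A group counted as reaching the filter when as many of its libraries as the smaller group holds stood at its CPM limit. The script was tested on simulated data with known changes. Alternatives were RLE size factors, DESeq2 1.42.0, limma-voom (limma 3.58.1) with library weights, no filter, a replicate block, all 6 groups in each fit, leaving out each library in turn, and leaving out the 3 shallowest libraries at 18 weeks. A chi-square comparison of 61 pairs of libraries within groups gave at least 2.77 per degree of freedom, so each library was kept as its own sample.

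The collagens named in every comparison were Col1a1, Col1a2, Col3a1, Col5a1, Col4a1, Col4a2, Col6a1, Col6a2, Col6a3, Col14a1, Col15a1 and Col18a1. To these were added up to 6 called collagens per direction by smallest p, or the one of smallest p per direction where none was called, and up to 3 called partner genes per direction beside Serpinh1, P4hb, Lox and Sparc. Other members are named to account for all 44, with their values known.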

Additional observations from a re-analysis of the deposited data

Results flagged for a closer look

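In 20 of 180 groups of 4 to 6 libraries tested, 1 per gene or sum and group, a single library stood further from the rest than Dixon's limit allows. Chance alone flags about 1 group in 20. No explanation was weighed for any of them.

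At 18 weeks, cadmium library 4 stood above the others for Col1a2 (31.8 CPM against 7.48 to 13.7), Col6a5 (3.85 against 0.279 to 1.23), Col7a1 (20.04 against 4.02 to 7.78) and the sum of all collagens (697 against 474 to 525.8). As a share of raw counts that sum did not stand apart, at 0.0525% against 0.0442% to 0.0528%. The TMM factor of the library was 0.753, against 0.887 to 1.04 in the rest of its group. In cadmium library 3 of that time, Col28a1 stood at 5.61 CPM (others 3.02 to 3.26). Vehicle library 2 stood above its group for Col14a1 (8.90 CPM against 3.59 to 4.73), Col1a2 (11.7 against 4.85 to 6.54) and Col7a1 (5.15 against 1.78 to 2.44). Below their group lay Col15a1 in vehicle library 1 (11.9 CPM against 15.8 to 17.9) and Col4a4 in vehicle library 4 (1.40 against 2.97 to 3.60), the latter one of the shallow libraries.

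In culture, cadmium library 2 stood above the others for Col12a1 (39.6 CPM against 17.4 to 22.3), Col28a1 (29.2 against 15.4 to 19.3) and Col6a1 (79.1 against 38.6 to 49.8), and vehicle library 2 for Col14a1 (29.4 against 16.7 to 19.9). Cadmium library 3 lay below for Col10a1 (17.9 CPM against 25.4 to 25.9) and Col4a5 (1.83 against 2.69 to 2.98). At 6 weeks, cadmium libraries stood above the other 3 for Col13a1 (library 1, 16.7 CPM against 15.4 to 15.6), Col4a1 (library 2, 277 against 228 to 235), Col6a5 (library 2, 4.64 against 1.02 to 1.47) and Col4a5 (library 3, 4.41 against 1.88 to 2.27).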

How the results depend on the processing

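The count of called collagens at 18 weeks was 0 by edgeR, 2 by DESeq2 and 8 with all 6 groups in the fit (where 11% of all genes were called), and 0 to 1 when 1 library was left out. The cause was not tested. For 18 weeks minus 6 weeks it was 0, with 1 by DESeq2, 1 (Col4a5) without the 3 shallowest libraries at 18 weeks, where 11.3% of all genes were called, and 0 to 1 when 1 library was left out. Counts in the vehicle comparisons were 29, 32 and 35 and stayed within 1.5 times under every alternative, and leaving out 1 library gave 25 to 30, 30 to 34 and 33 to 36. At 6 weeks and in culture, and for culture minus 6 weeks and minus 18 weeks, leaving out any 1 library gave 0.

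With the replicate block, 19 of 36 collagens were called in culture, all higher with cadmium, among 223 of 16743 genes (1.33%). Col1a1 had an edgeR adjusted p of 0.00486 and Col6a3 of 6.34e-05 under that block. Of the basement membrane pair, Col4a2 was called (edgeR adjusted p 0.0411) and Col4a1 was not (0.110). Whether the numbers pair the libraries is not known: deviations of same-numbered culture libraries correlated at 0.149, 0.292, 0.277, 0.0754 and 0.173, and not every library correlated best with its own number. The block called 0 collagens in both in vivo settings and 28, 34 and 33 in the vehicle comparisons.

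Among single genes, the block turned the log2 difference of Col6a3 at 6 weeks to -0.066. That of Col4a1 at 18 weeks turned to -0.0027 under the block, -0.0067 with limma-voom and -0.048 without the 3 shallowest libraries. Leaving out 1 library gave ranges at 6 weeks of -0.23 to 0.061 for Col1a1, -0.18 to 0.068 for Col3a1, -0.22 to 0.090 for Col5a1, -0.25 to 0.0089 for Col14a1 and -0.065 to 0.090 for Col6a3, at 18 weeks of -0.045 to 0.062 for Col4a1 and -0.098 to 0.020 for Col4a2, and for 18 weeks minus 6 weeks of -0.47 to 0.074 for Col10a1. Over all named genes, 2467 of 2510 values with 1 library left out and 826 of 854 others kept their direction and call.

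With acinar and insulin genes out of the denominator, the collagen share was 0.114%, 0.105%, 0.0558% and 0.0626% for the vehicle and cadmium groups of 6 and then of 18 weeks, each moved by more than its SD. Depth limits the members under the count filter.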
